A study of Mus musculus with 6 samples.

Results

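The 47 genes described here encode the machinery that copies DNA and the E2F factors that switch this machinery on before S phase. They were listed by name, with earlier results of these data known. Each was read from 1 Affymetrix probe set, the one that names no other gene and was brightest on average (mean log2 signal). Of the 47 genes, 42 had such a probe set, out of 12393 genes in all. Gins2, Gins3, E2f2, E2f7 and Chaf1a had none and were not analysed here. The samples were Ba/F3 cells, a pro-B line of the mouse whose growth depends on interleukin 3 (IL3) unless an active kinase replaces it. Cells carrying a pMSCV retroviral vector with ETV6-PDGFRB or FIP1L1-PDGFRA, fusion oncogenes that encode constantly active PDGF receptor kinases, had been selected for growth without IL3. Cells with the empty pMSCV vector were kept in IL3. All cells grew with 10% serum, and each of the 3 lines was studied untreated and after 4 h with 100 nM imatinib (Glivec), which inhibits these kinases. Whether a line was 1 clone or a pool was not given in the sources used here. Each combination of line and treatment was measured on 1 array. A ratio taken inside a line therefore stands without replicates, and precision is limited by how few arrays there are.

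Replication begins with licensing, in which the origin recognition complex, CDC6 and CDT1 load the MCM2 to MCM7 ring onto DNA in G1. In S phase CDC45 and the GINS complex turn that ring into an active helicase, and the clamp loader places PCNA on DNA for the polymerases. Unphosphorylated RB family proteins hold E2F factors in check. Cyclin D and cyclin E kinases release them, and the released activators raise transcription of most of these genes. E2F7 and E2F8 are repressors in the same circuit.

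The promoters of 4 genes are shown because their genes gave the largest rise among members with an E2F motif (Cdc6 and Cdt1), held the most matches (Mcm6), or fell (Orc2). Each sequence runs 5′ to 3′ from 250 bases before to 50 bases after a transcription start annotated by RefSeq on GRCm38.p6, and capitals mark the matches to the E2F motif. The motif was searched on both strands as TTTCCCGC, TTTCGCGC, TTTGCCGC or TTTGGCGC. The Cdc6 window is chr11:98907901-98908200 on the plus strand and that of Cdt1 is chr8:122567765-122568064 on the plus strand. The Mcm6 window is chr1:128359656-128359955 on the minus strand, where 2 of its 3 matches overlap. The Orc2 window is chr1:58505060-58505359 on the minus strand, at 1 of 2 annotated starts, and neither start held a match.
Cdc6: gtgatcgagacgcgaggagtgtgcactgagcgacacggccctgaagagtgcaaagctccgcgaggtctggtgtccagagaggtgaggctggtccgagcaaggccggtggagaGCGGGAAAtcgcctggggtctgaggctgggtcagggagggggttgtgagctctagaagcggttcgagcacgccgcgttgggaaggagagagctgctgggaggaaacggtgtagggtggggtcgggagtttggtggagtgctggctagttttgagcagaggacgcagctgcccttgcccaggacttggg
Cdt1: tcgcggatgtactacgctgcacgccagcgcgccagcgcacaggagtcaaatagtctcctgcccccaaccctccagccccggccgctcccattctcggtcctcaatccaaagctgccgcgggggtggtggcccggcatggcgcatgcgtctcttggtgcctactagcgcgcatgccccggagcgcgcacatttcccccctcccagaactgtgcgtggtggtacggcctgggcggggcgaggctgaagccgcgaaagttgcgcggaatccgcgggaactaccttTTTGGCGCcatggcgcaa
Mcm6: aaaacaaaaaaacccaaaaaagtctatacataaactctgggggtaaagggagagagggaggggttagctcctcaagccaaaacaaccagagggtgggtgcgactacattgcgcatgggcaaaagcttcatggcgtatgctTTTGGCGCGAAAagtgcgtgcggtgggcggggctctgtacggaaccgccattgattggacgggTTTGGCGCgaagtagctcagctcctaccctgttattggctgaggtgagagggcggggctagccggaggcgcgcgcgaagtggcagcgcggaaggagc
Orc2: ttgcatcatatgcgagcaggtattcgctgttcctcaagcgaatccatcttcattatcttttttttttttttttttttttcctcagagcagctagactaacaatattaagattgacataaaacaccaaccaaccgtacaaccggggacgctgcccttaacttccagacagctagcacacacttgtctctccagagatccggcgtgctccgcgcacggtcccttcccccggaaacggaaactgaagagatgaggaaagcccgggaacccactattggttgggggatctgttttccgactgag

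The motif stood in a promoter of 18 of the 40 members with an annotated promoter sequence, which is 45.0%. Among all 27025 genes with a promoter sequence the share was 2.6%, and among the 5647 of them that were also tested on the arrays it was 5.44%. A gene with several starts counted once if any of its windows held the motif. Of 22 members that rose with imatinib and had a sequence, 12 held it (54.5%), as did 3 of 14 tested members that did not rise (21.4%). CCAAT, the NF-Y box, searched on both strands, was present for 25 of the 40 members (62.5%) and for 41.1% of all genes. A match describes the letters of the window and is not a site. E2f8 and E2f1, the members with the largest changes, had no match to these 4 spellings in the window at their annotated start. Sequence outside that window was not searched, so this does not show that their promoters lack the motif.

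Most of these genes were higher in the fusion lines after 4 h of imatinib. In a limma fit across the 6 arrays, 27 of the 42 members rose, 1 fell (Orc2) and 14 did not pass, at a Benjamini-Hochberg adjusted p under 0.05 over 6808 genes. Of all genes tested, 13.5% rose and 12.4% fell. The fit had the line as a block and treated the 2 fusion lines as repeats, and counted any change within the IL3 pair as spread, so its p-values measure spread between lines and not between cultures. E2f8, E2f1, Cdc6 and Cdt1 had the largest rises, between 1.02 and 1.47 on the log2 scale. The median log2 change of the members was 0.50, against 0.04 for all genes. With the 4 fusion arrays alone 13 members rose and 1 fell, against 6.14% and 6.92% of all genes. Scaling the arrays to the hybridization controls left 13 that rose and 2 that fell, against 386 (5.68%) and 1876 (27.6%) of all genes. A lower floor, at the 40th percentile of signal, left 21 that rose and 1 that fell, against 7.17% and 7.63%. Without the ETV6-PDGFRB line or without the FIP1L1-PDGFRA line, limma called 0 genes and 0 members, and at an unadjusted p under 0.05 there were 29 and 30 of 42 members, against 31.8% and 34.3% of all genes. With no filter on low signals 1 member rose and 0 fell, against 0.387% and 0.476% of all genes.

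Within each line the members' ratios of the imatinib array to the untreated array can be read directly. In ETV6-PDGFRB cells 39 of 42 log2 ratios were above 0, with a median of 0.49, where 53.5% of all genes were above 0 and the median was 0.03. In FIP1L1-PDGFRA cells 38 of 42 were above 0, with a median of 0.51, against 55.5% and 0.05 for all genes. The IL3 pair had 31 of 42 above 0 and a median of 0.07, against 52.6% and 0.01. Changes of 2-fold or more were few. In ETV6-PDGFRB cells 5 members were at least 2-fold higher (E2f8, Ccne2, E2f1, Cdc6 and Cdt1), where 1.61% of all genes were. The 4 in FIP1L1-PDGFRA cells were E2f8, E2f1, Cdc6 and Cdt1, against 2.19% of all genes, and 0 members were 2-fold higher in the IL3 pair, against 0.0749%. No member was 2-fold lower in any line, where 2.86%, 2.97% and 0.0599% of all genes were. Scaling to the hybridization controls shifted the median of all genes to -0.14 in the ETV6-PDGFRB line and -0.23 in the FIP1L1-PDGFRA line. Relative to that shift the members' medians were 0.45 higher in both, and they were 0.46 higher than all genes in both lines as deposited.

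**Figure D1:**
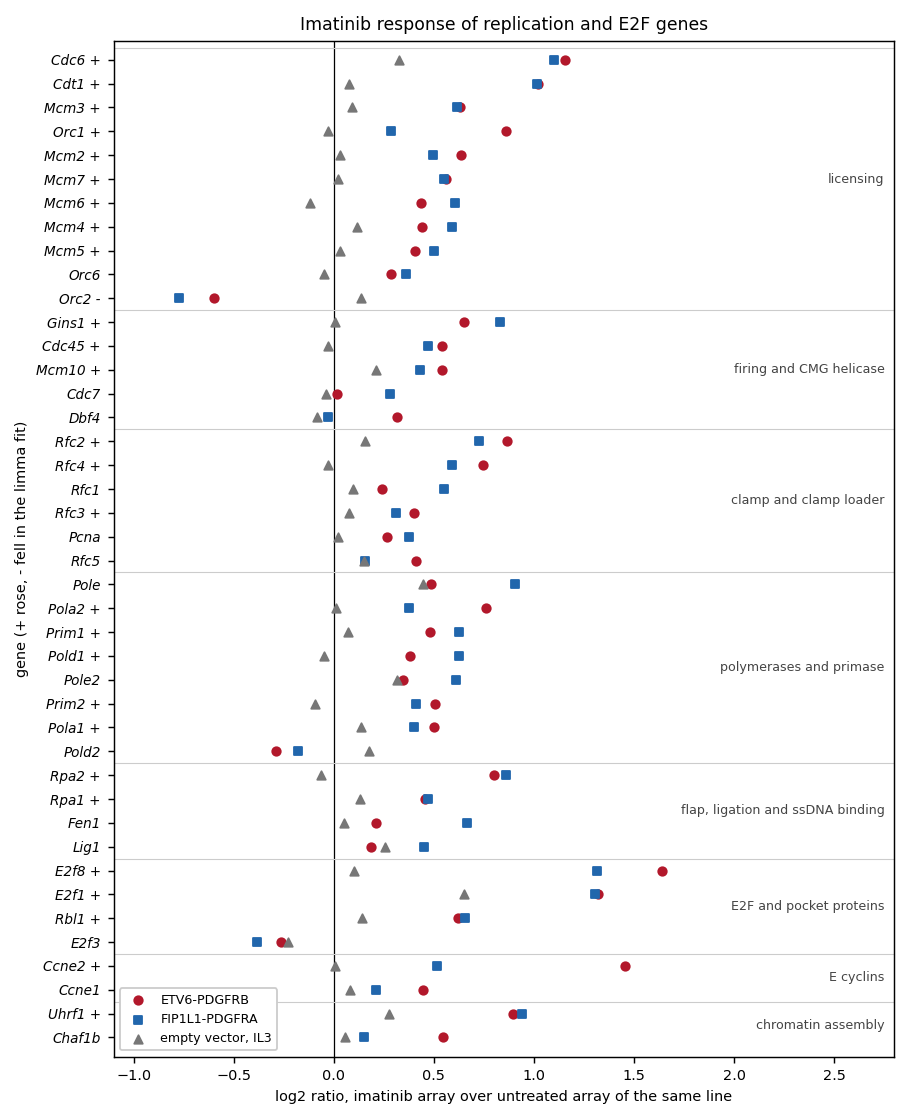
Log2 ratio of the imatinib array to the untreated array in each line (x axis) for the 42 members (y axis), grouped by role, with + for a gene that rose and - for one that fell in the limma fit. The ratios of the fusion lines lie mostly between 0.2 and 1, to the right of the IL3 pair, and Orc2 lies to the left of 0 in both fusion lines.

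**Figure D2:**
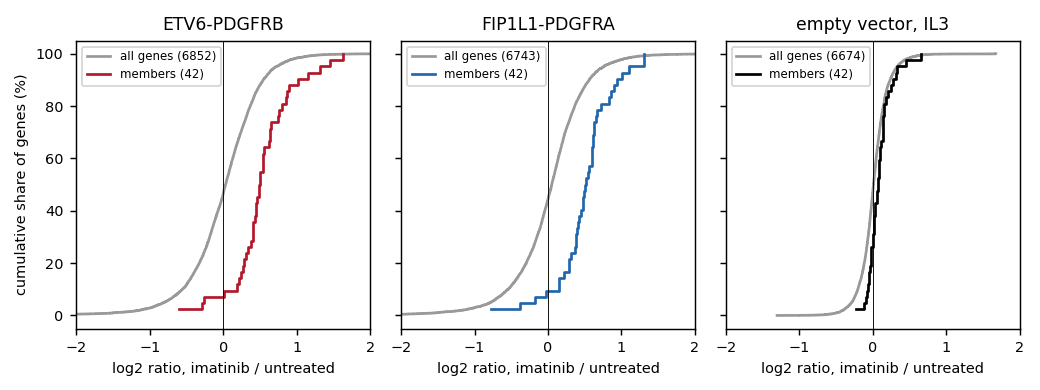
Cumulative share of genes (y axis, %) by log2 ratio of imatinib to untreated (x axis) in the 3 lines, for all genes with a ratio and for the 42 members. The member curve is shifted right in both fusion lines, with medians of 0.49 and 0.51, and lies close to the all-gene curve in the IL3 pair, where its median is 0.07.

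The factor that brings an array to the hybridization controls was 0.983 without and 0.869 with imatinib in ETV6-PDGFRB cells, 1.188 and 0.975 in FIP1L1-PDGFRA cells, and 1.017 and 1.020 in vector cells. It was thus lower with imatinib in both fusion lines and nearly equal in the IL3 pair, and its part in the members' ratios beyond the rescaled counts above was not tested. The share of 22690 probe sets above the signal floor of 20.1, the median array's 50th percentile, was 49.8% to 50.6%, and the ratio of 3' to 5' actin probe sets was 1.12 to 1.22. Of 13 pro-B and B cell markers with a probe set, Cd79a, Cd79b and Ptprc were above the floor on all arrays, while 9, among them Pax5, Ebf1, Rag1 and Vpreb1, were below it on all 6. The summed signal of that list was 780 and 936 without and with imatinib in ETV6-PDGFRB cells, 754 and 1070 in FIP1L1-PDGFRA cells, and 739 and 795 in vector cells. Most of each sum was the signal of Ptprc, at 624 and 728, 627 and 892, and 606 and 660 in the same order. Mast cell markers summed to 880 and 1149, 108 and 188, and 195 and 191 in the same order. Cpa3 led these sums and was above the floor on all arrays. Mcpt8 was above it in ETV6-PDGFRB cells alone (60.7 and 79.8), and Fcer1a and Tpsb2 were below it throughout. Sums for the erythroid and fibroblast lists stayed under 30 on every array, with every measured member below the floor. Sums for T and NK cells ranged from 9.66 to 36.8. Cd3e, Cd4, Cd8a and Ncr1 were below the floor on all arrays, and Cd3g was just above it in ETV6-PDGFRB cells (21.9 and 20.5). Myeloid sums ranged from 104 to 348, led by Adgre1. Csf1r was also above the floor on all arrays, while Itgam, Mpo and Elane were below it. The part of these markers in the results was not tested. In RNA from whole cultures, more cells at one stage of the cycle and more RNA per cell cannot be told apart.

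The licensing genes included 9 that rose, 1 that fell and 1 that did not pass among 11. Of all genes tested, 13.5% rose and 12.4% fell, and these shares also stand beside the counts of the other roles below. Cdc6, which loads the helicase ring together with the origin recognition complex, gave signals of 65.8 and 147 without and with imatinib in the ETV6-PDGFRB line, 75.9 and 163 in FIP1L1-PDGFRA cells, and 118 and 148 in vector cells. Both untreated fusion arrays were the lowest of the 6, and the imatinib arrays of all 3 lines lay close together. Cdc6 rose by 1.13 ± 0.13 on the log2 scale (SE, limma adjusted p = 0.00807), and its log2 ratio in the IL3 pair was 0.33. Cdt1, the partner of CDC6 in loading, went from 573 to 1162 and from 594 to 1199 in the fusion lines, and from 732 to 773 in vector cells. Its 2 imatinib fusion arrays stood well above the other 4, and the rise was 1.02 ± 0.09 (adjusted p = 0.00467).

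All MCM2 to MCM7 ring subunits rose in the main fit, by 0.45 to 0.62 on the log2 scale. Among 14 alternative settings Mcm4, Mcm5 and Mcm6 lost the call in 6, Mcm2 in 4, Mcm3 in 3 and Mcm7 in 2. These settings include the fits without a fusion line, in which no gene passed. Mcm7 had signals of 1021 and 1504 in the ETV6-PDGFRB line, 903 and 1320 in FIP1L1-PDGFRA cells, and 1038 and 1054 in vector cells. The fusion arrays with imatinib were above both vector arrays and the untreated ones below both, with a rise of 0.55 ± 0.08 (limma adjusted p = 0.0135). Mcm3 had the largest change of the ring, 0.62 ± 0.09 (adjusted p = 0.0117), and Mcm5 the smallest, 0.45 ± 0.09 (adjusted p = 0.0226). Mcm2 rose by 0.56, Mcm4 by 0.52 and Mcm6 by 0.52, with the imatinib fusion arrays above the other 4 arrays for each of these subunits.

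The origin recognition complex did not move as one. Orc2, a core subunit, was 122 and 80.4 in ETV6-PDGFRB cells, 161 and 94.3 in FIP1L1-PDGFRA cells, and 156 and 172 in vector cells. Its imatinib fusion arrays were the lowest of the 6. It fell by 0.69 ± 0.10 on the log2 scale (limma adjusted p = 0.0129), and its 2 further probe sets were lower with imatinib in both fusion lines as well, with log2 ratios of -0.95 and -0.56 for one, ETV6-PDGFRB first, and -0.68 and -0.48 for the other. Orc1, the subunit whose level peaks in G1, rose by 0.57 ± 0.15 (adjusted p = 0.0499), a value at the edge of the threshold, with a log2 ratio of 0.86 in the ETV6-PDGFRB line and 0.28 in the FIP1L1-PDGFRA line. Orc6, a peripheral subunit, had signals of 186 and 227, 234 and 300, and 245 and 237 in the 3 lines in the same order. Its ranges overlapped between treated and untreated arrays, and the change was 0.32 ± 0.09 (adjusted p = 0.0512).

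Among genes that fire origins or complete the helicase, 3 of 5 rose and 2 did not pass. Gins1, a GINS subunit, was 98.4 and 154 in ETV6-PDGFRB cells, 84.0 and 149 in FIP1L1-PDGFRA cells, and 88.6 and 89.1 in vector cells. Only its imatinib fusion arrays were above 100, and the rise was 0.74 ± 0.09 on the log2 scale (limma adjusted p = 0.00873). Cdc45, the helicase cofactor, rose by 0.51 ± 0.09 (adjusted p = 0.017), and Mcm10, which helps to activate the helicase, rose by 0.48 ± 0.11 (adjusted p = 0.0327). The kinase that triggers firing is made of CDC7 and its activator DBF4. Dbf4 had signals of 231 and 288 in the ETV6-PDGFRB line, 227 and 222 in FIP1L1-PDGFRA cells, and 244 and 230 in vector cells. It was higher in one fusion line and near its untreated level in the other, at 0.14 ± 0.12 (adjusted p = 0.394), and Cdc7 changed by 0.15 ± 0.10 (adjusted p = 0.327).

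The clamp and its loader had 3 members that rose and 3 that did not pass. Pcna, the sliding clamp, gave 2762 and 3318 in ETV6-PDGFRB cells, 2493 and 3236 in FIP1L1-PDGFRA cells, and 2804 and 2843 in vector cells. Both imatinib fusion arrays were above the other 4, and the change of 0.32 ± 0.09 on the log2 scale did not pass (limma adjusted p = 0.0523). Rfc2, a clamp loader subunit, was 437 and 794, 267 and 441, and 242 and 269 in the 3 lines. The untreated ETV6-PDGFRB array was already far above the untreated vector array, and Rfc2 rose by 0.79 ± 0.10 (adjusted p = 0.0093).

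Rfc4, also of the loader, was 244 and 410 in ETV6-PDGFRB cells, 234 and 353 in FIP1L1-PDGFRA cells, and 243 and 238 in vector cells. The 4 arrays other than the imatinib fusion arrays lay between 234 and 244, and the rise was 0.67 ± 0.09 (limma adjusted p = 0.0105). Rfc5 had 310 and 413, 290 and 323, and 279 and 310 in the same order. Its log2 ratio was 0.16 in FIP1L1-PDGFRA cells and 0.15 in vector cells, and it did not pass (0.28 ± 0.11, adjusted p = 0.118). Rfc3 rose by 0.36 (adjusted p = 0.0433), and Rfc1, the large subunit, had a change of 0.40 that did not pass (adjusted p = 0.0576).

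Polymerase and primase genes rose in 5 of 8 cases, where 13.5% of all genes tested rose. They included the polymerase alpha genes Pola1 (0.45) and Pola2 (0.57) and the catalytic delta subunit gene Pold1 (0.50, all log2 changes). The others were the primase genes Prim1 (0.55) and Prim2 (0.46), which start each new strand. Among 14 alternative settings of the analysis, Prim1 lost its call in 5, Prim2 and Pold1 in 6, Pola1 in 7 and Pola2 in 8. Pole, the catalytic subunit gene of the leading strand polymerase, was 78.8 and 110 in ETV6-PDGFRB cells, 60.4 and 113 in FIP1L1-PDGFRA cells, and 55.1 and 75.1 in vector cells. It was higher with imatinib in all 3 lines, and with a log2 ratio of 0.45 in the IL3 pair it did not pass (0.69 ± 0.19, limma adjusted p = 0.0515). Its partner Pole2 did not pass either (0.48 ± 0.14, adjusted p = 0.0654). Pold2, a delta accessory subunit gene, gave 189 and 155, 153 and 135, and 197 and 223 in the 3 lines. Both fusion lines were lower with imatinib, with overlapping ranges, and the change was -0.23 ± 0.10 (adjusted p = 0.152).

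Among genes for single-strand binding, flap removal and ligation, the RPA subunit genes rose and the other 2 did not pass. Rpa2 had signals of 184 and 320 in the ETV6-PDGFRB line, 190 and 345 in the FIP1L1-PDGFRA line, and 213 and 203 in vector cells. Only the imatinib fusion arrays exceeded 300, and the rise was 0.83 ± 0.09 on the log2 scale (limma adjusted p = 0.00703). Rpa1, the large subunit gene, was 966 and 1325, 909 and 1261, and 911 and 999, with the imatinib fusion arrays highest, and rose by 0.46 ± 0.09 (adjusted p = 0.0253). The DNA ligase gene Lig1 was 231 and 262, 195 and 266, and 184 and 219 in the 3 lines. It was higher with imatinib in all 3, including vector cells, and did not pass (0.32 ± 0.13, adjusted p = 0.13). The flap nuclease gene Fen1 changed by 0.44 ± 0.13 (adjusted p = 0.0662), with a log2 ratio of 0.21 in the ETV6-PDGFRB line and 0.67 in the FIP1L1-PDGFRA line.

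Of the E2F and pocket protein genes, 3 of 4 rose. E2f8, an E2F repressor gene gave 76.4 and 238 in ETV6-PDGFRB cells, 75.6 and 188 in FIP1L1-PDGFRA cells, and 92.9 and 99.4 in vector cells. The imatinib fusion arrays stood apart from the other 4. Its rise, 1.47 ± 0.11 on the log2 scale, was the largest of the members (limma adjusted p = 0.00383). E2f1, an activator gene, was 24.8 and 62.1, 27.3 and 67.3, and 34.0 and 53.3 in the 3 lines. It was higher with imatinib in each line, vector cells included, where its log2 ratio of 0.65 was the largest among the members. In the fusion lines it rose by 1.31 ± 0.22 (adjusted p = 0.0165), and its untreated fusion signals lay just above the floor.

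Rbl1, which encodes the RB relative p107, was 149 and 229 in ETV6-PDGFRB cells, 149 and 235 in FIP1L1-PDGFRA cells, and 147 and 162 in vector cells. The 2 groups of fusion arrays did not overlap, and Rbl1 rose by 0.64 ± 0.09 (limma adjusted p = 0.0131). E2f3, another activator gene, was 24.2 and 26.2 on the untreated fusion arrays, below the floor on the imatinib ones, and 26.9 and 22.9 in vector cells. All its signals were near or under the floor, and the fitted log2 change of -0.33, with the imatinib arrays set to the floor, did not pass (adjusted p = 0.0923).

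Of the genes of the E cyclins, which activate CDK2 at the G1/S boundary, 1 rose and 1 did not pass. Both were higher with imatinib in both fusion lines, and the difference between the 2 genes was not tested. Ccne2 was 32.6 and 89.3 in ETV6-PDGFRB cells, 50.3 and 71.9 in FIP1L1-PDGFRA cells, and 66.7 and 66.9 in vector cells. The untreated fusion arrays were lowest and the imatinib ones highest, with the wider gap in ETV6-PDGFRB cells, and it rose by 0.98 ± 0.22 on the log2 scale (limma adjusted p = 0.0337). Ccne1 was 50.1 and 68.3, 57.6 and 66.6, and 75.2 and 79.6 in the same order. Its imatinib fusion arrays stayed below both vector arrays, and the change of 0.33 ± 0.10 did not pass (adjusted p = 0.0704).

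Among chromatin assembly genes, Uhrf1, which guides DNA methylation to new strands, was 152 and 282 in ETV6-PDGFRB cells, 160 and 306 in FIP1L1-PDGFRA cells, and 212 and 257 in vector cells. The untreated fusion arrays were the lowest and the imatinib fusion arrays the highest of the 6. Uhrf1 rose by 0.92 ± 0.12 on the log2 scale (limma adjusted p = 0.00994). Chaf1b, a subunit gene of the histone chaperone CAF-1, gave 132 and 192, 154 and 171, and 129 and 135 in the 3 lines. Its signal on the FIP1L1-PDGFRA arrays differed little, and it did not pass (0.35 ± 0.12, adjusted p = 0.0928).

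**Figure D3:**
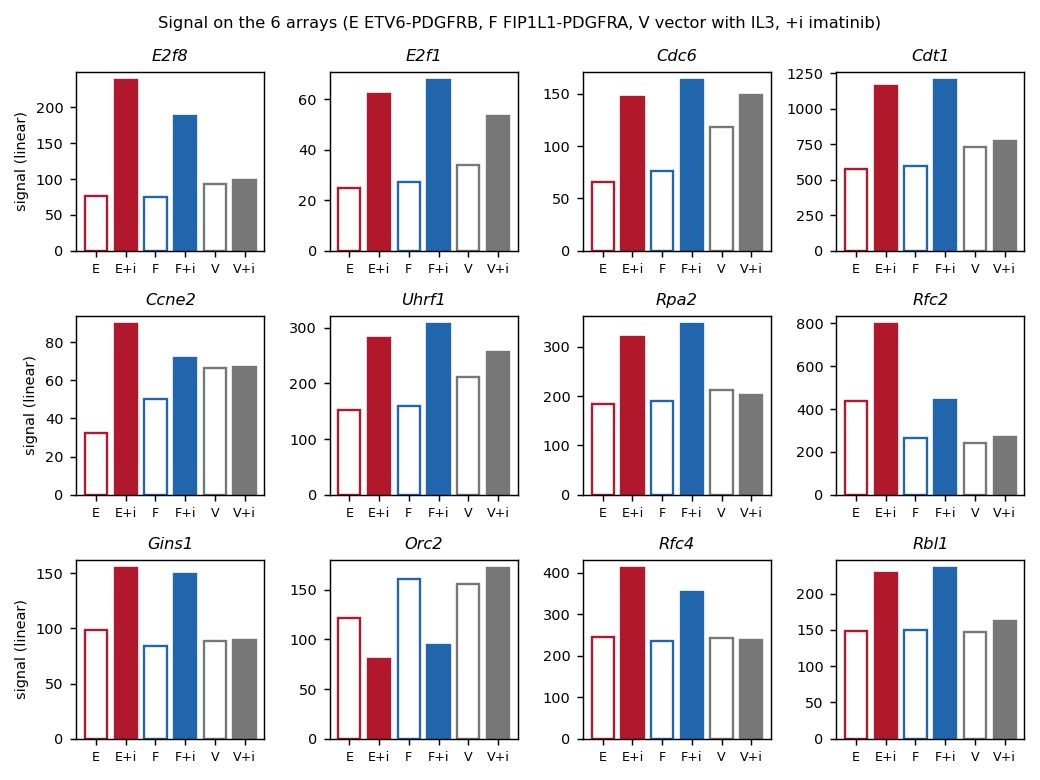
Signal on a linear scale (y axis) on each of the 6 arrays (x axis, open bars untreated and filled bars imatinib) for the 12 members with the largest changes that passed the test. Each bar is 1 array. The filled red and blue bars exceed the open ones for every gene but Orc2, and the grey pair of vector arrays has its largest ratio for E2f1.

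The vector cells in IL3 were the control for the drug itself, and the difference between the response of the fusion lines and that of the IL3 pair was tested as an interaction in limma. With 1 residual degree of freedom, 0 of 6808 genes passed an adjusted p under 0.05, members included, and the lowest adjusted p among members was 0.163, that of E2f8. At an unadjusted p under 0.05 there were 16 of 42 members and 1179 genes in all (17.3%). The interaction had a median of 0.45 over the members and of 0.02 over all genes. For E2f8 it was 1.38 ± 0.23 on the log2 scale, for Cdt1 0.94 ± 0.19, for Rpa2 0.90 ± 0.19 and for E2f1 0.66 ± 0.19. A log2 ratio of 0.25 or more in the IL3 pair was found for 6 members (14.3%), against 9.07% of all genes, and these were E2f1, Pole, Cdc6, Pole2, Uhrf1 and Lig1.

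The responses of the fusion lines were close to each other for most members. The absolute difference between their log2 ratios had a median of 0.14 over the 42 members and of 0.19 over 6640 genes. Ccne2 and Orc1 differed by more than 0.5, which 12.7% of all genes did. Ccne2 had log2 ratios of 1.46 in the ETV6-PDGFRB line and 0.51 in the FIP1L1-PDGFRA line, and Orc1 of 0.86 and 0.28. On the other side, Fen1 and Pole had ratios higher by 0.45 and 0.42 in FIP1L1-PDGFRA cells. With 1 array per line and treatment none of these differences was tested. Of the 42 members, 38 had ratios above 0 in both lines, against 42.8% of all genes, 3 had ratios below 0 in both (Orc2, Pold2 and E2f3), and Dbf4 was the remaining one.

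Without imatinib, the members' signals in the fusion lines lay near those of vector cells grown in IL3. In FIP1L1-PDGFRA cells the sign of their median log2 ratio depended on the scaling. The fusion lines also differ from vector cells by selection and lack of IL3, which cannot be told apart from the fusion gene here. In ETV6-PDGFRB cells 24 of 42 members were below the untreated vector array, where 47.0% of all genes were, with a median log2 ratio of -0.05, against 0.02 for all genes. In FIP1L1-PDGFRA cells 32 of 42 were below it, where 55.7% of all genes were, with a median of -0.16 against -0.03. Scaling to the hybridization controls turned the members' median to 0.062. That scaling multiplies every signal of an array by the same factor (1.188 for untreated FIP1L1-PDGFRA, 1.017 for untreated vector cells). The ratios of all genes therefore shift upward with those of the members. One member passed 2-fold: Ccne2 in ETV6-PDGFRB cells, with a log2 ratio of -1.03, where 0.736% of all genes were 2-fold lower. No member was 2-fold higher in either line, where 2.24% and 1.82% of all genes were, and none was 2-fold lower in FIP1L1-PDGFRA cells, where 0.327% were. Cdc6 had log2 ratios of -0.85 and -0.64 in the 2 lines. Both untreated lines were above vector cells for 9 members, against 30.7% of all genes, and both were below for 23, against 35.0%.

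With imatinib, most members were above the imatinib-treated vector cells. In ETV6-PDGFRB cells 36 of 42 members were above the imatinib-treated vector array, against 53.8% of all genes, with a median log2 ratio of 0.39 against 0.04 for all genes, and in FIP1L1-PDGFRA cells 35 were, against 52.3%, with 0.33 against 0.02. Both lines were above it for 33 members, against 42.6% of all genes, and both below for 4, against 37.8%. In ETV6-PDGFRB cells Rfc2 and E2f8 were at least 2-fold higher, at 1.56 and 1.26 (4.43% of all genes), and Orc2 was 2-fold lower, at -1.09 (3.72%). No member passed 2-fold in FIP1L1-PDGFRA cells, where 2.23% of all genes were higher and 2.38% lower, and E2f8 and Orc2 came closest, at 0.92 and -0.86. Scaled to the hybridization controls, the members' median in ETV6-PDGFRB cells was 0.16. The ratios of all genes also shift downward under that scaling, with factors of 0.869 for this array and 1.020 for the imatinib-treated vector array. These comparisons share arrays with the imatinib responses above and are not independent of them.

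The order of the 6 arrays shows the same values gene by gene. For 33 of 42 members both imatinib fusion arrays were above the other 4, as for 24.5% of genes tested, and for Orc2 and E2f3 they were below the other 4, as for 19.6%. Set against the untreated fusion arrays alone, the imatinib arrays were both above for 36 members, as for 30.8% of genes, and both below for 2, as for 26.0%. For 18 members both untreated fusion arrays were the lowest of the 6, as for 9.4% of genes. For 15 members the untreated fusion arrays were below and the imatinib fusion arrays above both vector arrays, as for 4.85% of genes, and these included Mcm2, Mcm3, Mcm4, Mcm5, Mcm7, Cdt1, Pcna, E2f1, E2f8, Ccne2 and Uhrf1. Scaled to the hybridization controls, the imatinib fusion arrays were above the other 4 for 19 members and above the untreated fusion arrays for 25, against 10.5% and 12.9% of genes. The untreated fusion arrays were then lowest for 9 members, against 2.24%, and both conditions lay on opposite sides of the vector arrays for 4, against 0.912%.

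**Figure D4:**
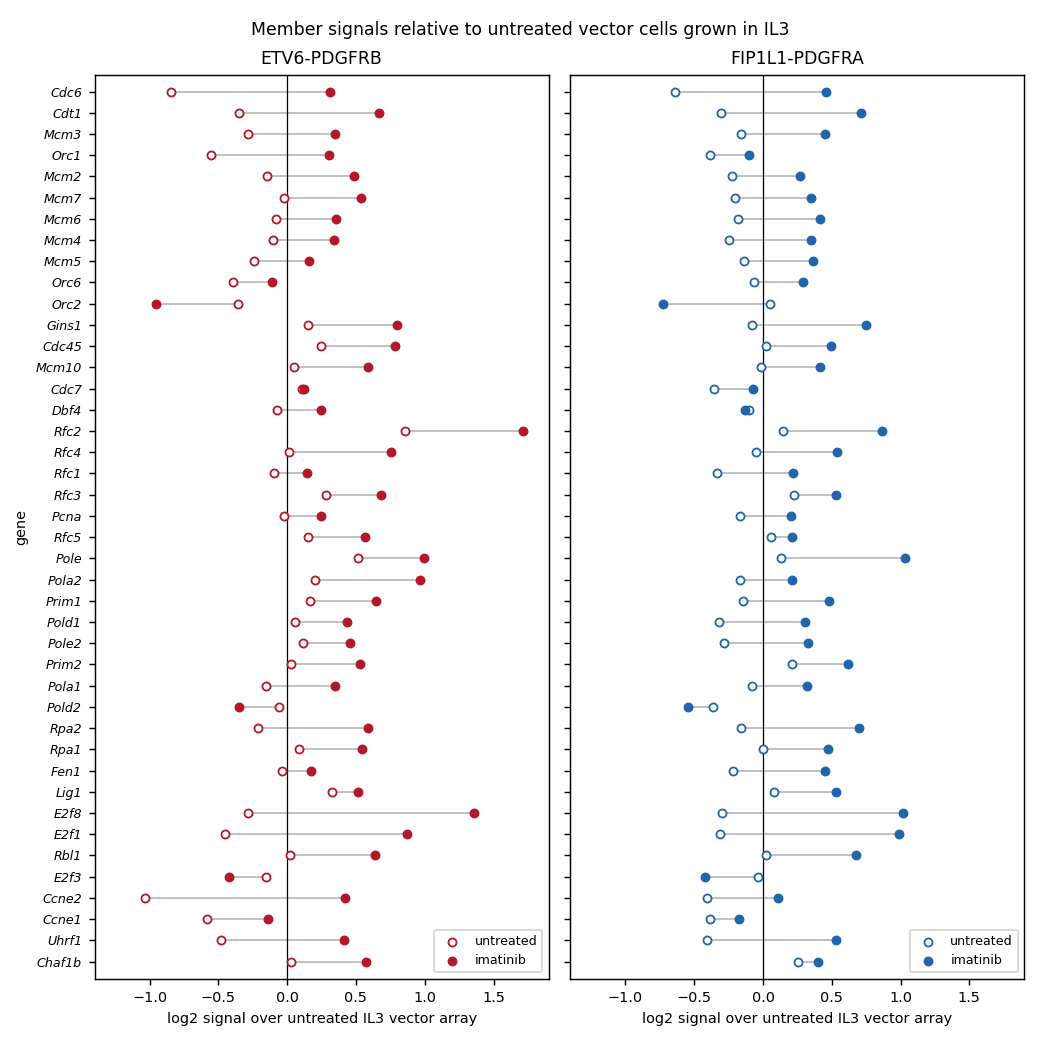
Log2 signal of each fusion array relative to the untreated vector array in IL3 (x axis) for the 42 members (y axis), with open circles for untreated and filled circles for imatinib arrays joined by a line. In FIP1L1-PDGFRA cells 32 open circles lie left of 0, and Orc2, Pold2 and E2f3 move to the left with imatinib in both lines.

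Among other genes of the same pathways, rises also outnumbered falls. From a list of 72 further replication and E2F genes, also chosen with earlier results known, 57 had a probe set and 54 were tested. Of these 27 rose, 2 fell and 25 did not pass, where 13.5% of all genes rose and 12.4% fell. Their median log2 change was 0.40, against 0.04 for all genes. Scaled to the hybridization controls, 13 rose and 7 fell, where 5.68% of all genes rose and 27.6% fell. Donson, a replication fork factor gene, had the largest change, at 58.7 and 118 in the ETV6-PDGFRB line, 47.1 and 115 in FIP1L1-PDGFRA cells, and 90.8 and 72.2 in vector cells, and it rose by 1.14 ± 0.15 (limma adjusted p = 0.0093). Its vector pair went the other way from its fusion pairs. Timeless, of the fork protection complex, rose by 1.13 and the thymidine kinase gene Tk1 by 1.07, both log2 changes. Orc5 rose by 0.80, Gmnn, which encodes the CDT1 inhibitor geminin, by 0.78, Brca2 by 0.78, Msh6 by 0.75, Brca1 by 0.74 and the histone mRNA binding protein gene Slbp by 0.71. Orc5 moved the opposite way from Orc2, while Orc3 (-0.17) and Orc4 (-0.34) did not pass.

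The partners and brakes of E2F also split. Rbl2, the gene of the RB relative p130, was 93.1 and 168 in ETV6-PDGFRB cells, 64.4 and 151 in FIP1L1-PDGFRA cells, and 83.1 and 78.6 in vector cells, and rose by 1.04 ± 0.12 on the log2 scale (limma adjusted p = 0.00801). Rb1 rose by 0.45 ± 0.11 (adjusted p = 0.0431). E2f5, a repressor E2F gene, was 34.7 and 28.8 on the untreated fusion arrays and below the floor with imatinib, against 36.8 and 34.0 in vector cells, and fell, with a fitted log2 change of -0.65 when the imatinib arrays are set to the floor (adjusted p = 0.0164). Cdc25a, the phosphatase gene that activates CDK2, was 78.1 and 50.7, 66.3 and 50.1, and 93.7 and 105 in the 3 lines, and fell by 0.52 ± 0.11 (adjusted p = 0.0284). Of the remaining ones, E2f4 (-0.29, adjusted p = 0.102), E2f6 (0.07, adjusted p = 0.583) and the dimer partner gene Tfdp1 (-0.10, adjusted p = 0.422) did not pass.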

How the data were processed

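RNA from Ba/F3 cells was hybridised to 6 Affymetrix mouse arrays. The authors deposited 1 linear intensity signal per probe set for each array. Per the submitters' processing notes, these came from MAS5 in GCOS 1.4.0. The values show that each array was scaled, with a mean of 100.0 after trimming 2% at each end. For detection calls and the genome build, the settings are not given in the sources used here. Probe sets were named from the platform annotation (20393 of 22690 with 1 symbol), and RefSeq updated 0 symbols. Signals under the floor (20.1, from the 50th percentile of each array, taking the median array) were set to it. A log2 ratio was taken where at least 1 of 2 arrays exceeded the floor, and 6808 genes above it on at least 2 arrays were tested in limma 3.58.1 (R 4.3.3), with 2 residual and 3.10 prior degrees of freedom. The code was tested on simulated data. Motifs and ratios were computed in Python 3.11.15 with pandas 2.3.3. The fit treats the fusion lines as repeats, and the labels say nothing of separate cultures. Alternatives changed the floor, scaling, probe set, filter, fit and lines. The members and gene lists were chosen with earlier results of these data known. All 42 measured members are named. Values on every array are given for the 12 largest changes, for those that fell, for the largest and smallest change in each role and for the 3 highest signals. Members whose fusion lines went opposite ways, both by more than the SD of the IL3 pair, would have been added, and there were 0.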

Additional observations from a re-analysis of the deposited data

How the results depend on the processing

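No paired analysis by replicate number was possible because each group had 1 array, and the line was the block in the fit. All genes tested gave 916 that rose and 841 that fell, the members 27 and 1, and the other pathway genes 27 and 2. Scaling to the hybridization controls gave 386 and 1876, 13 and 2, and 13 and 7. The 4 fusion arrays alone, and likewise a separate coefficient for the IL3 pair, gave 418 and 471, 13 and 1, and 12 and 1. With no filter on low signals, limma gave 48 and 59, 1 and 0, and 1 and 0, with 0.306 prior degrees of freedom. A floor at the 40th percentile gave 588 genes that rose in all and 16 and 1 of the other pathway genes, and one at the 60th percentile gave 1 of them that fell. Leaving out either fusion line leaves 1 residual degree of freedom from the IL3 pair, and limma then called 0 genes and 0 members. At an unadjusted p under 0.05 there were 2167 genes and 29 of 42 members without ETV6-PDGFRB, and 2334 and 30 without FIP1L1-PDGFRA. Of the 28 member calls, 28 were kept with quantile normalization, the pseudocount of 20, the floor at the 60th percentile and an intensity trend. Testing genes above the floor on at least 1 array kept 27, and scaling to the mean of all probe sets kept 26. Averaged probe sets kept 25 and the floor at the 40th percentile 22. Hybridization control scaling, the 4 fusion arrays alone and a separate coefficient for the IL3 pair each kept 14. No filter kept 1, and leaving out either fusion line kept 0. Calls were lost most often for Orc1 (10 of 14 alternatives), then Mcm10, Pola2 and Rfc3 (8 each). No call changed sign in any alternative. Members at least 2-fold higher numbered 5 in the ETV6-PDGFRB line and 4 in the FIP1L1-PDGFRA line. They were 2 and 1 with the pseudocount, 3 and 2 with hybridization control scaling, where 1 was 2-fold lower in FIP1L1-PDGFRA cells, and 3 and 2 when each gene's probe sets were averaged. With hybridization control scaling the members' median log2 ratios for imatinib were 0.31 and 0.22. The median for imatinib-treated ETV6-PDGFRB over vector cells was 0.16, and that for untreated FIP1L1-PDGFRA over vector cells turned to 0.062. This scaling multiplies every signal of an array by the same factor, so the ratios of all genes shift along with those of the members. The causes were not tested. The counts by order of the arrays under other scalings were chosen after seeing the data. Low signals limit E2f1, E2f3 and Ccne2.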

Other observations

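Many members were read by more than 1 probe set. Of 23 members with further single-symbol probe sets, 31 such probe sets existed and 24 were above the floor on all 4 fusion arrays. For all 24 the log2 ratios had the same sign as those of the probe set used, in both fusion lines. With 38 of 42 members above 0 in both lines, the same sign was likely in any case. Mcm3 had 3 of these 24 probe sets. Their log2 ratios were 0.65, 0.68 and 0.84 in the ETV6-PDGFRB line and 0.68, 0.41 and 0.93 in the FIP1L1-PDGFRA line. The 3 of Mcm7 had 0.59, 0.91 and 0.74 in the first line and 0.53, 0.59 and 0.72 in the second. Sizes differed more for some other members. In ETV6-PDGFRB cells the further Mcm2 probe set had a log2 ratio of 0.18, against 0.63 for the one used. In FIP1L1-PDGFRA cells that of Rbl1 had 0.19 against 0.65, and that of Rfc3 0.77 against 0.31. The second E2f1 probe set was near or under the floor on the fusion arrays, at 19.6 and 3.33 untreated and 26.2 and 20.6 with imatinib, and gives no second reading of its change.

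Several members lay close to the test's threshold. Between adjusted p of 0.04 and 0.07 in limma there were 2 that passed, Rfc3 and Orc1, and 6 that did not, namely Orc6, Pole, Pcna, Rfc1, Pole2 and Fen1. The 6 had log2 changes from 0.32 to 0.69,.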
